A study of Mus musculus with 17 samples.

Results

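Cholesterol and fatty acid synthesis was followed through 29 genes in mouse prostate and prostate tumours: 18 enzymes that make sterols, 5 regulators and sterol carriers, and 6 genes of fatty acid synthesis. The genes were chosen by name from their place in these pathways, and all 29 were found by symbol or Entrez number in each of the 17 libraries of the series. They stand among 13905 genes measured in the genotype libraries and 39179 in the libraries of an inducible model, of which 23289 passed the filter on low values; all 29 passed it in both.

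The tissue came from C57BL/6 mice and was profiled by RNA sequencing. Tumours labelled Ctnnb1pc(ex3)delta/+, in which exon 3 of 1 copy of the beta-catenin gene is deleted, came from mice of about 12 months and are called Ctnnb1 tumours here (n = 3). Tumours of mice of about 6 to 8 months that carry this allele together with another engineered change are called combined tumours (n = 3). Wild-type prostates came from mice of 12 months (n = 3). In the inducible model the same kinds of alleles are recombined by CreERT2, a Cre that is switched on by tamoxifen; tumours of mice of about 15 months were labelled ADT treated (n = 3) or mock treated (n = 2), and both groups carry the recombined alleles. ADT stands for androgen deprivation. The files give whole genes and not exons, so the exon deletion itself was not checked. The labels do not say that each library is a separate animal, so p-values measure the spread between these libraries.

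Sterols and fatty acids are both built from acetyl-CoA. In the sterol pathway acetyl units are joined and reduced to mevalonate, converted to isoprenoids, condensed to squalene, cyclised to lanosterol and trimmed to cholesterol. Fatty acids are made by carboxylation of acetyl-CoA, chain building to palmitate, elongation and desaturation. The membrane-bound factors SREBF1 and SREBF2 drive the genes of both branches: when sterol is scarce, SCAP escorts them from the endoplasmic reticulum to the Golgi for cleavage, and INSIG1 holds SCAP back when sterol is plentiful. In the prostate, androgen is known to raise lipid synthesis genes, and prostate cancers are known for high fatty acid synthase.

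The promoters of 3 members whose results are described below are shown first, as the 150 bases upstream of the annotated start site (RefSeq, GRCm38.p6, on the strand of the gene). They are Hmgcs1, which was higher in both kinds of tumour, Mvd, which went opposite ways in them, and Fasn, which was higher in both. Capitals mark matches to TCACNCCAC, a motif like the sterol response element, and to CCAAT, the box bound by NF-Y, on either strand (CCAAT reads ATTGG on the other strand).
Hmgcs1 promoter, chr13:119690201-119690350, plus strand: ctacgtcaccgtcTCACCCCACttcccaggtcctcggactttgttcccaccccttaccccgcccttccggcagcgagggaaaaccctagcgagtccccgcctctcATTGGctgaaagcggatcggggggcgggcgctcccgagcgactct
Mvd promoter, chr8:122443423-122443572, minus strand: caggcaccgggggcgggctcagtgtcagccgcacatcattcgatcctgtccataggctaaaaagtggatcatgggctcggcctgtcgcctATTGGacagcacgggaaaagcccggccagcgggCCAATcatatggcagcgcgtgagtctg
Fasn promoter, chr11:120824548-120824697, minus strand: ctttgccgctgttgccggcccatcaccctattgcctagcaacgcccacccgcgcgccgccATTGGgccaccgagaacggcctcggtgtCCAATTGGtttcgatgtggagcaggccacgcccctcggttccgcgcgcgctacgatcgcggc

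The Hmgcs1 stretch holds 1 match to each motif, the Mvd stretch holds 2 CCAAT matches, and the Fasn stretch holds 3, of which 2 overlap. Promoters of 23 of the 29 members were found in the RefSeq table; those of Fdps, Fdft1, Sqle, Stard4, Scd1 and Scd2 were not used here. Over the 250 bases before the start site, TCACNCCAC was present in 1 of the 23, Hmgcs1, against 1.22% of 27025 genes. CCAAT was present in 18 of the 23, against 37.5% of all genes, and the E-box CACGTG was present in 5, against 6.86% of all genes. These are matches of letters, counted on both strands.

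The values are scores: gene counts that were scaled by library and rounded, so the sequencing depth is unknown and no interval from counting can be given. They sum to 26754772 to 27522308 in Ctnnb1 tumours, 26428684 to 27189777 in combined tumours and 37222233 to 38995268 in wild-type prostates, where the highest single transcript alone took 10.9% to 15.0% of the total. The scaling sets the median gene near no change (log2 0.00 in Ctnnb1 tumours and -0.01 in combined tumours), whereas setting all totals equal moves that median to 0.49 in Ctnnb1 tumours and 0.50 in combined tumours. Changes below are on the deposited scale, which is relative to the median gene. Markers of cell types also differed between the groups. Summed over 9 luminal prostate markers the values were 254189 to 354240 in Ctnnb1 tumours, 116649 to 206506 in combined tumours and 1442812 to 1745814 in wild-type prostates. In wild-type prostates most of that sum is the secretory gene Tgm4, which had 122914 to 177427 in Ctnnb1 tumours, 10517 to 69447 in combined tumours and 921258 to 1163929 in wild-type prostates; of the 9 markers 1 rose and 5 fell in Ctnnb1 tumours and 2 rose and 6 fell in combined tumours, and the keratin gene Krt8 rose in both (log2 1.07 in Ctnnb1 tumours, 1.41 in combined tumours). Over 7 smooth muscle markers they were 1747 to 3418 in Ctnnb1 tumours, 5775 to 19443 in combined tumours and 139248 to 178671 in wild-type prostates. The 7 macrophage markers summed to 9744 to 18644 in Ctnnb1 tumours, 12277 to 47279 in combined tumours and 4639 to 5093 in wild-type prostates. The 8 adipocyte markers measured (Lep and Retn are not listed) summed to 1928 to 2529 in Ctnnb1 tumours, 2014 to 3443 in combined tumours and 3681 to 7481 in wild-type prostates. The 6 fibroblast markers summed to 16596 to 26373 in Ctnnb1 tumours, 35178 to 561354 in combined tumours and 30165 to 35870 in wild-type prostates. The 6 seminal vesicle markers summed to 184 to 4401 in Ctnnb1 tumours, 39386 to 206322 in combined tumours and 446343 to 4389271 in wild-type prostates, and the 6 skeletal muscle markers to 54 to 8954 in Ctnnb1 tumours, 97 to 1059 in combined tumours and 9066 to 123245 in wild-type prostates. No measured marker of these lists was at 0 in all libraries of a genotype group. In bulk tissue fewer cells of a type and less RNA per cell cannot be told apart, and the part of the cell mix or of age in the results below was not tested.

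In Ctnnb1 tumours against wild-type prostate, among the 18 sterol enzymes 1 rose, 7 fell and 10 were not called; among the 5 regulators and carriers 1 rose, 3 fell and 1 was not called; among the 6 fatty acid genes 4 rose, none fell and 2 were not called. The median log2 change was -0.38 for the sterol enzymes, -0.54 for the regulators and carriers and 0.38 for the fatty acid genes. A gene was called at an adjusted p under 0.05 (limma on log2(value + 1), Benjamini-Hochberg over 13905 genes), a rule that called 58.5% of all genes, 28.9% higher and 29.6% lower. The 16 members called are near that background as a share. Without overlap between the groups, 7 members were higher and 16 lower, against 35.9% and 35.6% of all genes. At equal totals the balance turned round: 12 members were called higher and 4 lower, among them 5 sterol enzymes higher and 2 lower, with 56.1% of all genes called higher and 15% lower. The medians there were 0.11, -0.05 and 0.87; the 6 members called higher on the deposited scale were also called higher, and of the 10 called lower 4 were called lower. With 3 further libraries of the series in the fit, the calls on Hmgcs1, Mvd, Fdps, Cyp51 and Srebf2 were lost. With only the 6 Ctnnb1 and wild-type libraries in it, Sqle, Lss, Msmo1, Dhcr7 and Scd1 were called lower as well.

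In combined tumours against the same wild-type prostates, 5 sterol enzymes rose, 3 fell and 10 were not called. None of the regulators and carriers rose, 3 fell and 2 were not called, and 3 fatty acid genes rose, none fell and 3 were not called. The median log2 changes were 0.30 for the sterol enzymes, -0.45 for the regulators and carriers and 0.40 for the fatty acid genes. The same rule called 57.8% of all genes, 28.3% higher and 29.5% lower, and 14 of the 29 members. Without overlap between the groups, 9 members were higher and 6 lower, against 32.1% and 34% of all genes. At equal totals the medians were 0.82, 0.06 and 0.92 and 13 sterol enzymes were called higher and none lower, with 57.3% of all genes called higher and 12.6% lower. All 8 members called higher on the deposited scale were called higher at equal totals as well, and of the 6 called lower only Scap was called lower. With 3 further libraries in the fit, the calls on Mvd, Fdft1, Nsdhl, Insig1 and Srebf1 were lost, and with only the 6 combined and wild-type libraries Acly was called higher as well. Both comparisons use the same wild-type libraries, so the values of the 3 groups are given side by side.

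**Figure D1:**
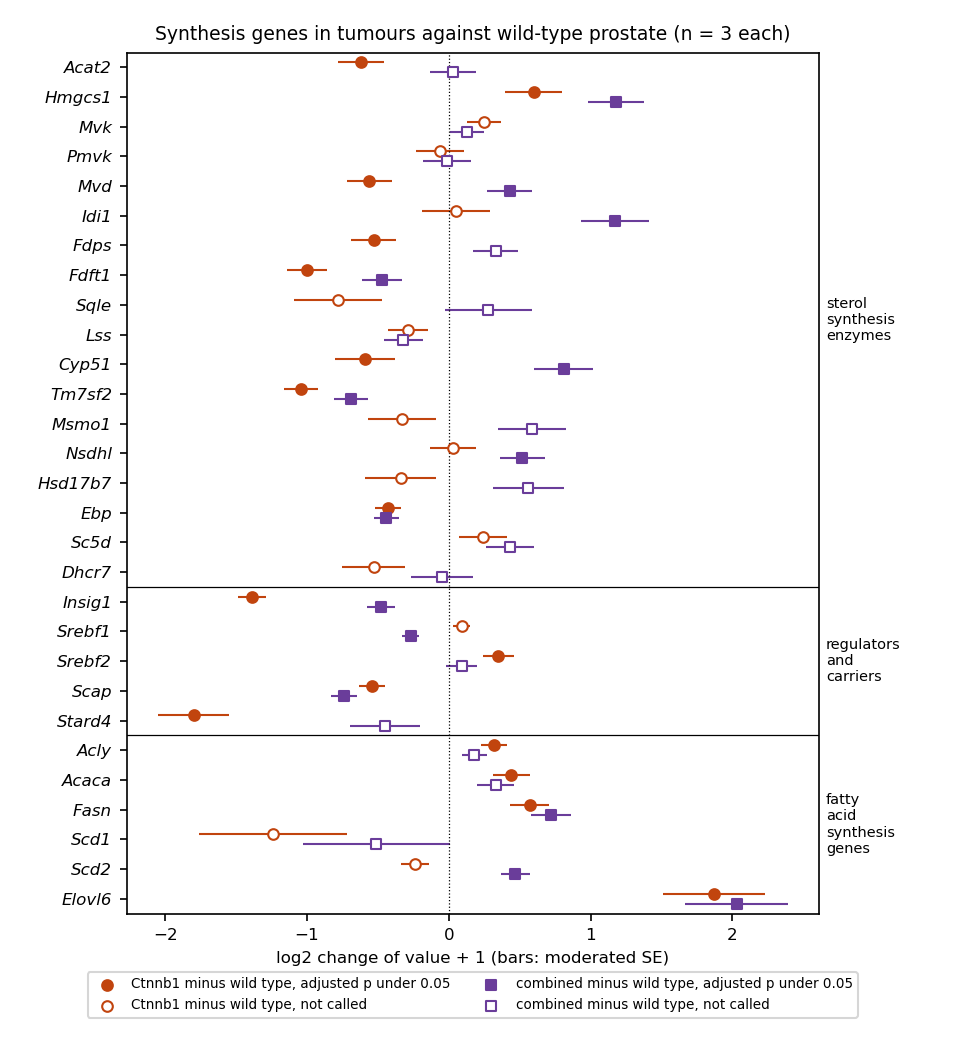
Log2 change of each of the 29 genes (x axis, log2 of value + 1; bars are limma's standard errors) in Ctnnb1 tumours (circles) and combined tumours (squares) against wild-type prostate, with 3 libraries in each group. Filled marks passed an adjusted p of 0.05; Elovl6 lies farthest to the right in both, at 1.87 in Ctnnb1 and 2.03 in combined tumours, and Stard4 farthest to the left in Ctnnb1 tumours, at -1.80.

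Among the enzymes that lead to mevalonate and the isoprenoids, Hmgcs1, the HMG-CoA synthase that commits acetyl units to the pathway (chr13:119690379-119708260, GRCm38), had values of 2889, 2807 and 2442 in Ctnnb1 tumours, 2952, 4285 and 5162 in combined tumours, and 1619, 1672 and 2082 in wild-type prostates. All 6 tumour libraries lay above all 3 wild-type libraries. It rose 1.52-fold in Ctnnb1 tumours (log2 0.60, SE 0.20, adjusted p = 0.0274) and 2.26-fold in combined tumours (log2 1.18, SE 0.20, adjusted p = 0.00121). The Ctnnb1 call was lost without Ctnnb1 replicate 13 or 14 or without wild-type replicate 1 or 2, with adjusted p between 0.069 and 0.0863. Exons of Hmgcs1 share 557 bases with an antisense gene, and the strand setting of the counting is not given in the sources used here.

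Idi1, the isomerase that interconverts the isoprenoid building blocks, had 953, 582 and 680 in Ctnnb1 tumours, 1173, 2042 and 1623 in combined tumours and 598, 749 and 762 in wild-type prostates. The combined tumours lay above all the others and Idi1 rose 2.25-fold there (log2 1.17, SE 0.24, adjusted p = 0.00341), whereas the Ctnnb1 tumours overlapped wild type (log2 0.05, adjusted p = 0.872). Mvd, which decarboxylates mevalonate diphosphate, had 355, 333 and 263 in Ctnnb1 tumours, 573, 733 and 583 in combined tumours and 444, 519 and 431 in wild-type prostates. It stood below wild type in every Ctnnb1 tumour and above it in every combined tumour, with calls in opposite directions (log2 -0.56, adjusted p = 0.0156 in Ctnnb1 tumours; log2 0.43, adjusted p = 0.0424 in combined tumours). Both calls are fragile: the Ctnnb1 call was lost without Ctnnb1 replicate 15 (adjusted p = 0.0501) or wild-type replicate 2 (0.0605) and at equal totals (log2 -0.07), and the combined call without combined replicate 10 (0.0501) or 11 (0.131) or wild-type replicate 1 (0.112) or 3 (0.12).

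Acat2, which joins acetyl-CoA units in the cytosol, had 495, 406 and 354 in Ctnnb1 tumours, 561, 770 and 650 in combined tumours and 609, 623 and 689 in wild-type prostates. It fell in Ctnnb1 tumours (log2 -0.62, SE 0.16, adjusted p = 0.00944), with no such call at equal totals (log2 -0.13), and the combined tumours spread around wild type. At equal totals Acat2 was called higher in combined tumours (log2 0.55, adjusted p = 0.0104). Fdps, the farnesyl diphosphate synthase, had 1260, 969 and 1038 in Ctnnb1 tumours, 1567, 2065 and 2335 in combined tumours and 1492, 1724 and 1491 in wild-type prostates. It fell in Ctnnb1 tumours (log2 -0.53, SE 0.16, adjusted p = 0.0195), a call lost without Ctnnb1 replicate 14 (adjusted p = 0.0631) or 15 (0.058), without wild-type replicate 2 (0.0688) and at equal totals (log2 -0.04). In combined tumours Fdps was not called (log2 0.33, adjusted p = 0.108). It was called higher there without combined replicate 10 (adjusted p = 0.0173) and at equal totals (log2 0.84, adjusted p = 0.00174). Exons of Fdps share 1124 bases with another gene. Mvk and Pmvk, the kinases that phosphorylate mevalonate in turn, were not called in either comparison; Mvk lay between 649 and 867 in the tumours and between 619 and 681 in wild type, and Pmvk between 385 and 572 in the tumours and between 455 and 465 in wild type. The log2 changes of Pmvk were -0.06 in Ctnnb1 tumours and -0.01 in combined tumours, and 0.43 and 0.51 in the same comparisons at equal totals, where both were called. Mvk was also called higher at equal totals, with log2 0.74 in Ctnnb1 tumours and 0.64 in combined tumours.

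At the step that commits isoprenoids to sterols, Fdft1, the squalene synthase, had 890, 623 and 680 in Ctnnb1 tumours, 927, 1181 and 1038 in combined tumours and 1421, 1410 and 1496 in wild-type prostates. Every tumour lay below every wild-type library. It fell 1.99-fold in Ctnnb1 tumours (log2 -1.0, SE 0.14, adjusted p = 0.000566) and 1.38-fold in combined tumours (log2 -0.47, SE 0.14, adjusted p = 0.0212). At equal totals the Ctnnb1 call held (log2 -0.50), whereas the combined change turned to 0.05, and the combined call was also lost without combined replicate 10 (adjusted p = 0.0697) or without any single wild-type library (0.0503 to 0.0638). Exons of Fdft1 share 774 bases with Ctsb, which lies on the other strand.

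Sqle, the squalene epoxidase that is a control point of the pathway, was not called in either comparison. Its values were 842, 435 and 895 in Ctnnb1 tumours, 1000, 1614 and 1825 in combined tumours and 1014, 1255 and 1300 in wild-type prostates. The Ctnnb1 tumours lay below wild type (log2 -0.78, SE 0.31, adjusted p = 0.0587). Sqle was called lower there without Ctnnb1 replicate 15 (adjusted p = 0.0467) or with only the Ctnnb1 and wild-type libraries in the fit (0.0473). The combined tumours overlapped wild type (log2 0.28, adjusted p = 0.465), with a call at equal totals (log2 0.79, adjusted p = 0.0483). Lss, which cyclises the epoxide to lanosterol, ranged from 804 to 1151 in the tumours and from 1114 to 1310 in wild type and was not called, with log2 changes of -0.29 in Ctnnb1 tumours and -0.32 in combined tumours that turned to 0.20 in each at equal totals; in combined tumours it was called lower without combined replicate 12 (adjusted p = 0.025).

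Beyond lanosterol, Cyp51, the lanosterol demethylase, had 867, 558 and 769 in Ctnnb1 tumours, 1492, 2229 and 2068 in combined tumours and 916, 1145 and 1209 in wild-type prostates. It is the other sterol enzyme, with Mvd, that was called in opposite directions: log2 -0.59 (SE 0.21, adjusted p = 0.0375) in Ctnnb1 tumours and log2 0.81 (SE 0.21, adjusted p = 0.00985) in combined tumours. The combined call held in all 6 fits that left out a library, and the Ctnnb1 call was lost without Ctnnb1 replicate 14 (adjusted p = 0.113) or 15 (0.0627) or wild-type replicate 2 (0.101) or 3 (0.113) and at equal totals (log2 -0.10). Tm7sf2, one of a pair of sterol C14 reductases, had 391, 460 and 370 in Ctnnb1 tumours, 484, 491 and 587 in combined tumours and 862, 822 and 824 in wild-type prostates. All tumours were below wild type, by 2.06-fold in Ctnnb1 tumours (adjusted p = 0.000189) and 1.61-fold in combined tumours (adjusted p = 0.00142); at equal totals the log2 change was -0.55 in Ctnnb1 tumours, still called, and -0.17 in combined tumours, not called. Exons of Tm7sf2 share 532 bases with Vps51 on the same strand.

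Ebp, the sterol isomerase, had 1191, 1265 and 1030 in Ctnnb1 tumours, 1155, 1200 and 1106 in combined tumours and 1545, 1665 and 1478 in wild-type prostates. It fell in Ctnnb1 tumours (log2 -0.43, SE 0.09, adjusted p = 0.00413) and in combined tumours (log2 -0.44, SE 0.09, adjusted p = 0.00384). At equal totals the changes turned to 0.06 in Ctnnb1 tumours and 0.08 in combined tumours and were not called. Nsdhl, an enzyme of C4 demethylation encoded on the X chromosome, had 644, 571 and 551 in Ctnnb1 tumours, 697, 905 and 885 in combined tumours and 709, 486 and 548 in wild-type prostates. It rose in combined tumours (log2 0.52, SE 0.16, adjusted p = 0.0237), although 1 combined library lay below the highest wild-type library. That call was lost without combined replicate 11 (adjusted p = 0.0719) or 12 (0.0595) or wild-type replicate 2 (0.0848) or 3 (0.0695). In Ctnnb1 tumours Nsdhl was not called (log2 0.03, adjusted p = 0.868) but was called higher at equal totals (log2 0.52, adjusted p = 0.0153). The other enzymes after lanosterol, Msmo1, Hsd17b7, Sc5d and Dhcr7, were not called in either comparison, with log2 changes between -0.53 and 0.24 in Ctnnb1 tumours and between -0.05 and 0.59 in combined tumours. At equal totals Msmo1 (0.16) and Hsd17b7 (0.15) turned in Ctnnb1 tumours, and Dhcr7 (0.46) turned in combined tumours, without a call. At that scaling Sc5d was called higher in Ctnnb1 tumours (log2 0.73) and in combined tumours (log2 0.95). Msmo1 (log2 1.11) and Hsd17b7 (log2 1.07) were called higher in combined tumours. On the deposited scale single libraries decided some calls. Dhcr7 was called lower in Ctnnb1 tumours without Ctnnb1 replicate 15 (adjusted p = 0.0455). In combined tumours Msmo1 (0.00263) and Sc5d (0.031) were called higher without combined replicate 10. Hsd17b7 (0.0233) and Sc5d (0.0234) were called higher there without wild-type replicate 3.

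The sterol enzymes also varied together within the combined group: combined replicate 10 was the lowest of its 3 libraries for 16 of the 18. Averaged over the 18 enzymes its log2 level was 0.02 below the wild-type mean, while combined replicates 11 and 12 lay 0.40 and 0.37 above it. Ctnnb1 replicates 13, 14 and 15 lay at -0.15, -0.45 and -0.39, and wild-type replicates 1, 2 and 3 at -0.10, 0.01 and 0.09. On that average and the deposited scale the Ctnnb1 libraries were all below wild type, replicate 13 only narrowly, and the combined group split. At equal totals the median log2 change of the sterol enzymes in Ctnnb1 tumours was 0.11.

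**Figure D2:**
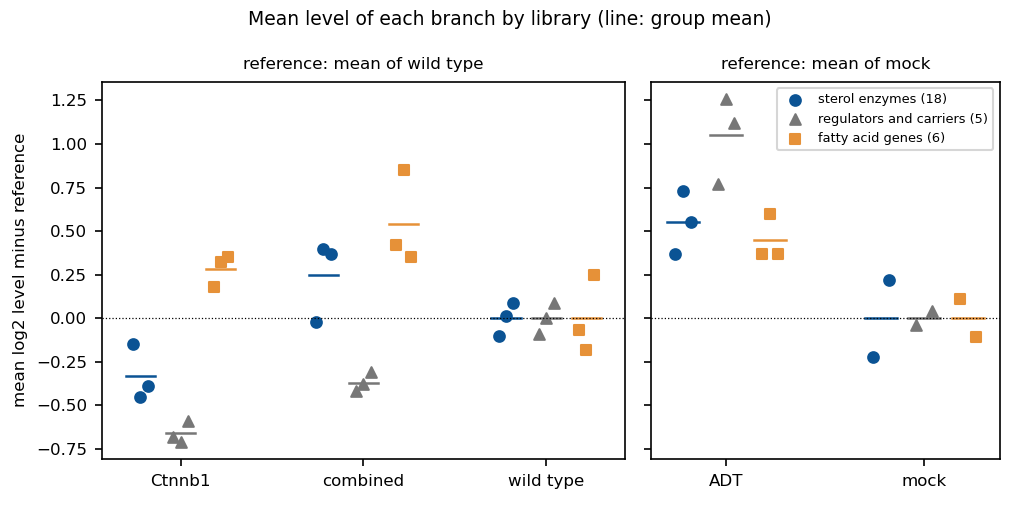
Mean log2 level of the 18 sterol enzymes, the 5 regulators and carriers and the 6 fatty acid genes in each library, minus the mean of wild type (left) or of mock (right); lines are group means. In Ctnnb1 tumours the sterol mean lies between -0.45 and -0.15 and the fatty acid mean between 0.18 and 0.35; in ADT tumours all 3 means are above those of the mock libraries.

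Among the regulators, Insig1, which retains SCAP in the endoplasmic reticulum and is itself a target of the pathway (chr5:28071363-28078662), had 643, 646 and 607 in Ctnnb1 tumours, 1165, 1378 and 1043 in combined tumours and 1694, 1593 and 1670 in wild-type prostates. The 3 groups did not overlap. Insig1 fell 2.61-fold in Ctnnb1 tumours (log2 -1.39, SE 0.10, adjusted p = 3.31e-05), a call that held at equal totals (log2 -0.89), and 1.39-fold in combined tumours (log2 -0.48, SE 0.10, adjusted p = 0.00446), where equal totals gave 0.04. Stard4, a carrier that moves cholesterol between membranes, had 166, 132 and 243 in Ctnnb1 tumours, 406, 457 and 480 in combined tumours and 472, 612 and 792 in wild-type prostates. It fell 3.49-fold in Ctnnb1 tumours (log2 -1.80, SE 0.25, adjusted p = 0.000542; -1.31 at equal totals), the largest drop among the 29 members there, and was not called in combined tumours (log2 -0.45, adjusted p = 0.157; 0.06 at equal totals).

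Scap, the escort of the SREBF proteins, had 2342, 2721 and 2341 in Ctnnb1 tumours, 2242, 1998 and 2209 in combined tumours and 3329, 3616 and 3836 in wild-type prostates. It fell in Ctnnb1 tumours (log2 -0.54, SE 0.09, adjusted p = 0.00104) and in combined tumours (log2 -0.74, SE 0.09, adjusted p = 0.000223), and at equal totals only the combined call remained (log2 -0.22). Exons of Scap share 985 bases with an overlapping gene model. Srebf2, the factor tied mainly to sterol genes, had 5988, 5387 and 6074 in Ctnnb1 tumours, 4539, 4413 and 5724 in combined tumours and 4367, 4813 and 4522 in wild-type prostates. It rose 1.27-fold in Ctnnb1 tumours (adjusted p = 0.021), a call lost without Ctnnb1 replicate 13 or 15 or wild-type replicate 1 or 3 (adjusted p 0.0564 to 0.0693). In combined tumours Srebf2 overlapped wild type (log2 0.09, adjusted p = 0.484) but was called higher at equal totals (log2 0.61, adjusted p = 0.00172). Srebf1, the factor tied mainly to fatty acid genes, had 5767, 6117 and 5642 in Ctnnb1 tumours, 4385, 4393 and 4860 in combined tumours and 5664, 5312 and 5445 in wild-type prostates. It was not called in Ctnnb1 tumours (log2 0.09, adjusted p = 0.237) but was called higher there at equal totals (log2 0.58, adjusted p = 9.82e-05). In combined tumours Srebf1 fell (log2 -0.27, SE 0.06, adjusted p = 0.00737). Equal totals reversed that change to 0.25 with a call in the other direction (adjusted p = 0.00989).

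Of the fatty acid genes, Fasn, the synthase that builds palmitate (chr11:120805846-120824547), had 10658, 8920 and 10470 in Ctnnb1 tumours, 9138, 12273 and 12149 in combined tumours and 6399, 6132 and 7823 in wild-type prostates. Every tumour lay above every wild-type library. It rose 1.48-fold in Ctnnb1 tumours (log2 0.57, SE 0.14, adjusted p = 0.00975) and 1.64-fold in combined tumours (log2 0.72, SE 0.14, adjusted p = 0.00312), and both calls held in all 6 fits that left out a library. Elovl6, which elongates palmitate (chr3:129532355-129638495), had 1162, 1174 and 1736 in Ctnnb1 tumours, 1479, 1797 and 1232 in combined tumours and 370, 210 and 619 in wild-type prostates. This was the largest rise among the members in both comparisons, 3.66-fold in Ctnnb1 tumours (log2 1.87, SE 0.36, adjusted p = 0.00262) and 4.07-fold in combined tumours (log2 2.03, SE 0.36, adjusted p = 0.00173), and the wild-type libraries themselves spread widely.

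Acly, which makes cytosolic acetyl-CoA from citrate, had 9191, 9108 and 7389 in Ctnnb1 tumours, 7533, 7897 and 7795 in combined tumours and 6650, 6735 and 7108 in wild-type prostates. It rose 1.25-fold in Ctnnb1 tumours (adjusted p = 0.0149), a call lost without Ctnnb1 replicate 13 (0.0542) or 14 (0.0504) or wild-type replicate 1 (0.0507). It was not called in combined tumours (log2 0.18, adjusted p = 0.113), although neither group overlapped wild type. At equal totals Acly was called higher in combined tumours (log2 0.70, adjusted p = 0.000139). Acaca, the carboxylase at the rate-limiting step, had 1398, 1662 and 1696 in Ctnnb1 tumours, 1388, 1517 and 1466 in combined tumours and 984, 1148 and 1382 in wild-type prostates. It rose 1.36-fold in Ctnnb1 tumours (adjusted p = 0.0178). That call was lost without Ctnnb1 replicate 14 or 15 or wild-type replicate 1 or 2 (adjusted p 0.0511 to 0.0608). In combined tumours Acaca was not called (log2 0.33, adjusted p = 0.0575). It was called higher there without wild-type replicate 3 (adjusted p = 0.0144), at equal totals (0.000443) and with upper-quartile scaling (0.0479).

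The stearoyl-CoA desaturases, which place the first double bond in saturated fatty acids, are close paralogues, so that reads matching both could be split by the counting. Scd2 had 25639, 27744 and 23172 in Ctnnb1 tumours, 38670, 42898 and 43817 in combined tumours and 30506, 29579 and 30113 in wild-type prostates. It rose 1.39-fold in combined tumours (log2 0.47, SE 0.10, adjusted p = 0.00353) and lay below wild type in every Ctnnb1 tumour without being called (log2 -0.24, adjusted p = 0.0611). In Ctnnb1 tumours Scd2 was called lower without Ctnnb1 replicate 14 (adjusted p = 0.0429), with upper-quartile scaling (0.0481) and with a robust variance prior (0.0456). Equal totals turned the sign there, with a call in the other direction (log2 0.25, adjusted p = 0.0438). Scd1 had 3252, 5443 and 5131 in Ctnnb1 tumours, 6395, 18594 and 3504 in combined tumours and 9636, 10079 and 12323 in wild-type prostates. All Ctnnb1 tumours lay below wild type and 1 combined tumour lay above it, and neither comparison was called (log2 -1.24, SE 0.52, adjusted p = 0.0702 in Ctnnb1 tumours; log2 -0.51, SE 0.52, adjusted p = 0.428 in combined tumours). Equal totals turned the combined change to 0.01. Without combined replicate 11, Scd1 was called lower in combined tumours (log2 -1.17, adjusted p = 0.0144). In Ctnnb1 tumours it was called lower with only the Ctnnb1 and wild-type libraries in the fit (adjusted p = 0.00236) and with 3 further libraries in it (adjusted p = 0.0455).

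**Figure D3:**
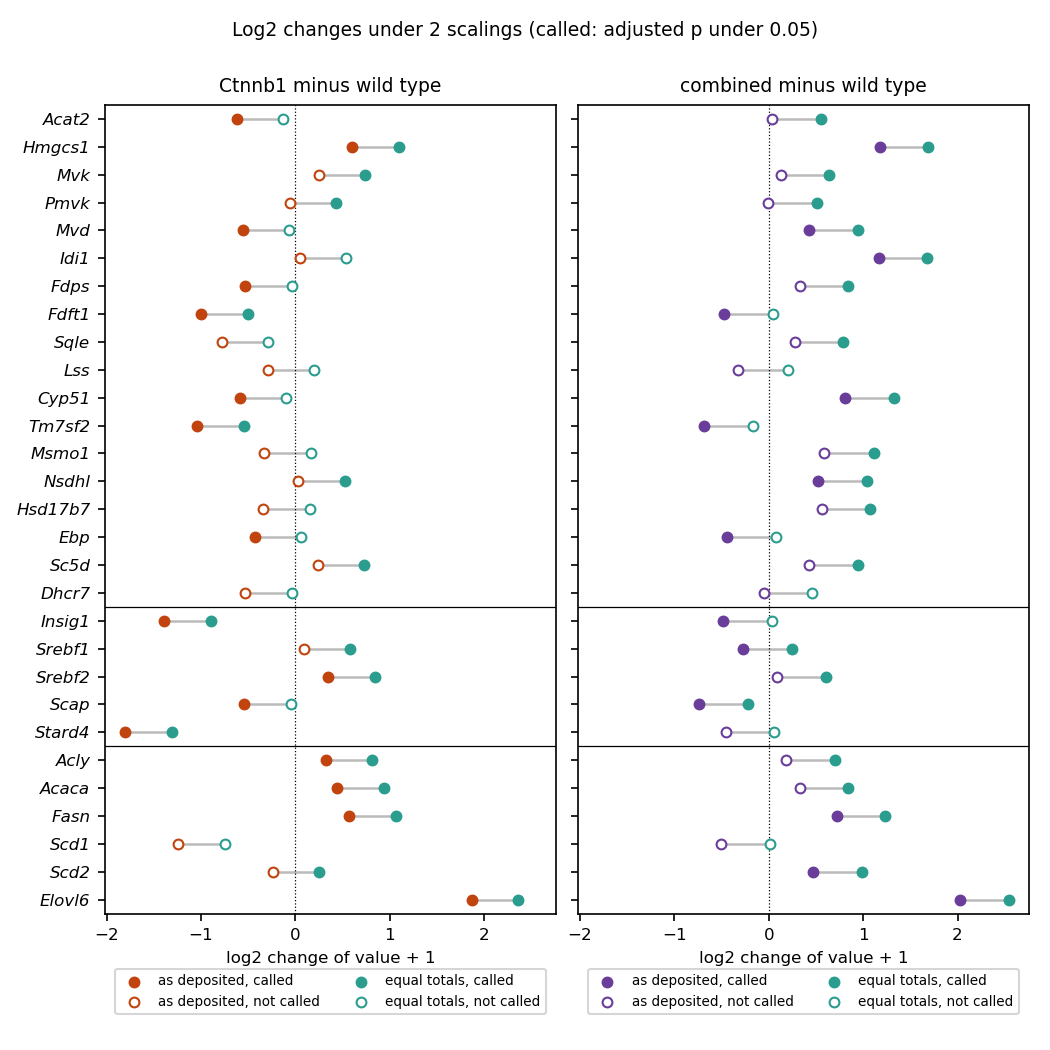
Log2 change of each gene in Ctnnb1 tumours (left) and combined tumours (right) against wild type, on the deposited scale and with all library totals set equal; filled marks passed an adjusted p of 0.05. Equal totals shift every plotted gene to the right, by 0.49 (Ctnnb1) and 0.50 (combined) for the median gene of all, so that Insig1 in combined tumours goes to 0.04 while Insig1 in Ctnnb1 tumours stays at -0.89.

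Ratios of a pair of members within 1 library do not depend on the scaling, and pairs are set out here as a description, chosen after the values were seen. The ratio of Hmgcs1 to Fdft1 was 3.25 to 4.51 in Ctnnb1 tumours, 3.18 to 4.97 in combined tumours and up to 1.39 in wild-type prostates. The ratio of Fasn to Insig1 was 13.8 to 17.2 in Ctnnb1 tumours, 7.84 to 11.6 in combined tumours and 3.78 to 4.68 in wild-type prostates. The ratio of Elovl6 to Scd1 was 0.216 to 0.357 in Ctnnb1 tumours, 0.0966 to 0.352 in combined tumours and 0.0208 to 0.0502 in wild-type prostates. In each of these 3 pairs every tumour library lay above every wild-type library.

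**Figure D4:**
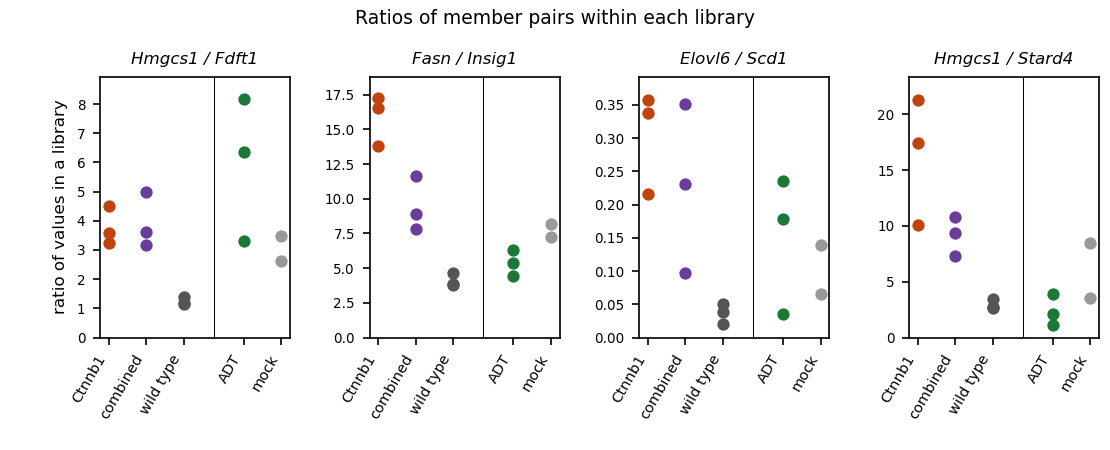
Ratio of the values of a pair of members in each library, for 4 pairs, in Ctnnb1, combined and wild-type libraries and, right of the line, in ADT and mock libraries. Hmgcs1 over Fdft1 lies at 3.18 or above in the 6 tumours left of the line and at 1.39 or below in wild type.

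Genes around the pathway gave counts of their own. Of 21 measured genes of other lipogenic steps (of 22 listed; Pnpla3 not listed in these files), 4 rose and 10 fell in Ctnnb1 tumours (28.9% and 29.6% of all genes), and 6 rose and 4 fell in combined tumours (28.3% and 29.5% of all genes). At equal totals 9 were called higher and 4 lower in Ctnnb1 tumours, against 56.1% and 15% of all genes. In combined tumours 12 were called higher and 1 lower at that scaling, against 57.3% and 12.6% of all genes. Hsd17b12, a reductase of fatty acid elongation, had 2730, 2879 and 2639 in Ctnnb1 tumours, 2830, 3027 and 3067 in combined tumours and 1262, 1386 and 1508 in wild-type prostates, and it rose in Ctnnb1 tumours (log2 0.99, adjusted p = 4.03e-05) and in combined tumours (log2 1.10, adjusted p = 2.39e-05). Slc25a1, the mitochondrial citrate carrier, fell in Ctnnb1 tumours (log2 -1.04, adjusted p = 3.43e-05) and in combined tumours (log2 -0.50, adjusted p = 0.000828; 0.01 at equal totals). Acsl4, which activates polyunsaturated fatty acids, rose in Ctnnb1 tumours (log2 1.52, adjusted p = 0.000172). It rose less in combined tumours (log2 0.52, adjusted p = 0.0286). Lpin1, a phosphatidate phosphatase, fell in combined tumours (log2 -1.27, adjusted p = 0.000915) and in Ctnnb1 tumours (log2 -0.85, adjusted p = 0.00673). At equal totals the Ctnnb1 change of Lpin1 was -0.36 and not called. Me1, the malic enzyme that supplies NADPH, was called lower in Ctnnb1 tumours (log2 -0.79, adjusted p = 0.00136; -0.30 and not called at equal totals) and higher in combined tumours (log2 0.74, adjusted p = 0.00185).

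Of 18 genes of sterol regulation, uptake, storage and efflux, 5 rose and 5 fell in Ctnnb1 tumours, which is near the shares of 28.9% and 29.6% over all genes, and 9 rose and 4 fell in combined tumours, against 28.3% and 29.5%. At equal totals 10 were called higher and 2 lower in Ctnnb1 tumours, against 56.1% and 15% of all genes. In combined tumours 13 were called higher and 2 lower at that scaling, against 57.3% and 12.6% of all genes. Tmem97, the sigma-2 receptor, had 1225, 1134 and 961 in Ctnnb1 tumours, 717, 794 and 775 in combined tumours and 4868, 5270 and 4415 in wild-type prostates. It fell by 2.13 on the log2 scale in Ctnnb1 tumours (adjusted p = 8.34e-06) and by 2.67 in combined tumours (adjusted p = 5.79e-06). Abcg1, which exports cholesterol, rose in combined tumours (log2 2.06, adjusted p = 0.000255) and in Ctnnb1 tumours (log2 1.51, adjusted p = 0.00121). Soat1, which esterifies cholesterol for storage, rose in combined tumours (log2 1.95, adjusted p = 0.000555) but was not called in Ctnnb1 tumours (log2 0.07). Of the 7 macrophage markers 6 also rose in combined tumours and 5 in Ctnnb1 tumours, and their part in these changes was not tested. Mylip, a ubiquitin ligase for lipoprotein receptors, fell in combined tumours (log2 -1.17, adjusted p = 0.000471). It also fell in Ctnnb1 tumours (log2 -0.76, adjusted p = 0.0042), where it was not called at equal totals (log2 -0.27). Npc2, which moves cholesterol out of lysosomes, fell in Ctnnb1 tumours (log2 -0.99, adjusted p = 0.000113). In combined tumours Npc2 was not called (log2 -0.20), and at equal totals it was called higher there (log2 0.31, adjusted p = 0.0287). Lbr, the other sterol C14 reductase, rose in Ctnnb1 tumours (log2 0.82, adjusted p = 0.000281). Scarb1, the receptor for high-density lipoprotein, rose in Ctnnb1 tumours (log2 1.22, adjusted p = 0.000384). Both also rose in combined tumours (Lbr log2 0.61, adjusted p = 0.00122, and Scarb1 log2 0.62, adjusted p = 0.0104).

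The comparison of ADT with mock asks how these genes stand when androgen is withdrawn from tumours of the inducible model. Pbsn, the androgen-dependent probasin gene, had 0, 1 and 5 in ADT tumours and 2533 and 2475 in mock tumours. All 29 members had a log2 change above 0, against 48.6% of all genes. The median was 0.55 for the sterol enzymes, 0.84 for the regulators and carriers and 0.39 for the fatty acid genes, against -0.02 for all genes. A one-sided rise was not particular to these genes. In a list of 10 cell cycle genes all 10 were above 0 as well, with a median of 0.48. In a list of 10 androgen response genes 9 were below 0, with a median of -1.85. No member was called by limma, which called 2 of 23289 genes (0.00859%), Pycr1 and Tubb4a, named here after their values were seen. At an unadjusted p under 0.05 there were 11 of 29 members, against 16.2% of all genes. The ADT and mock libraries did not overlap, with ADT higher, for 17 of the 29 members (10 of 18 sterol enzymes, 4 of 5 regulators and carriers and 3 of 6 fatty acid genes) and, with ADT lower, for none, against 16.4% of all genes higher and 16.8% lower. At equal totals 28 members were above 0, with Mvk at -0.04, against 45.9% of all genes, and 15 did not overlap, with ADT higher, against 15.1%.

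**Figure D5:**
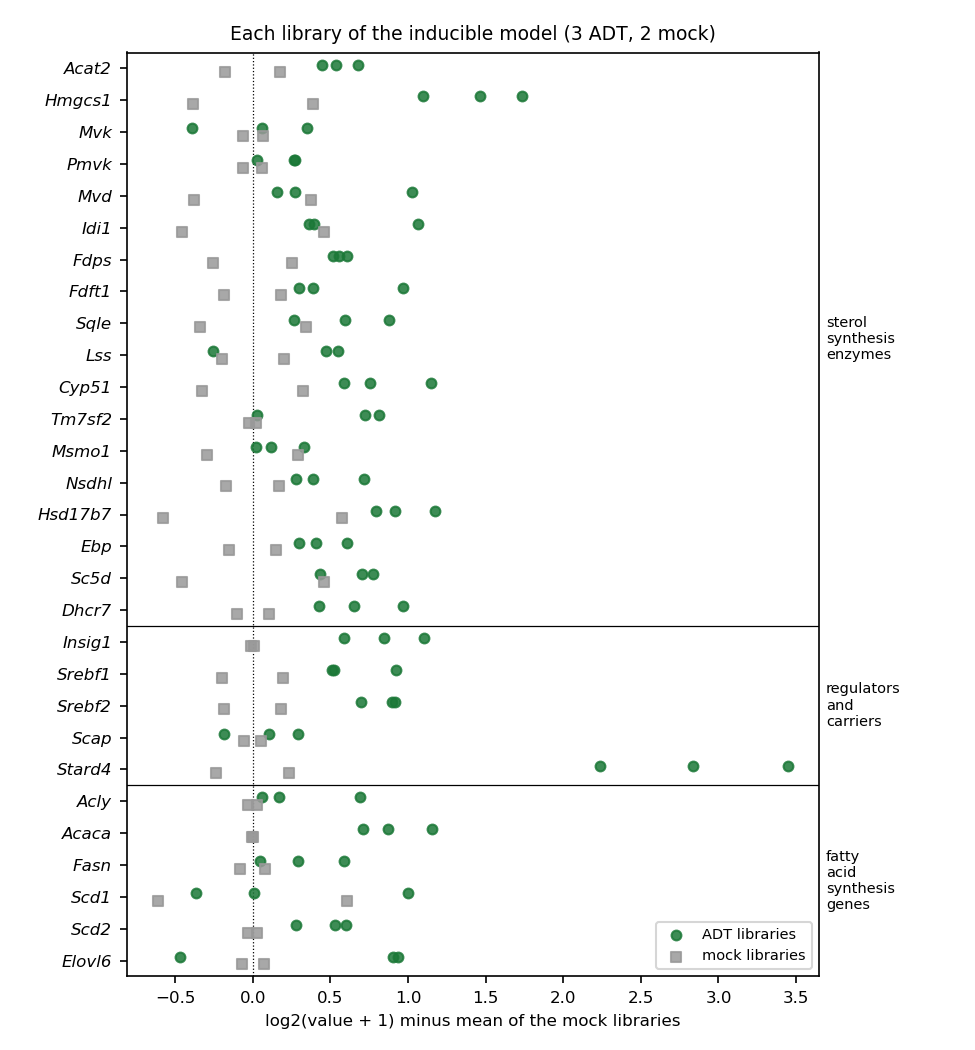
Log2 of value + 1 in each ADT library (circles) and each mock library (squares), minus the mean of the mock libraries, for the 29 genes. The 3 ADT values of Stard4 lie farthest to the right, and those of Mvk, Lss, Scap and Elovl6 lie on both sides of the mock libraries.

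Stard4, the sterol carrier, stood out in size: it had 3088, 7141 and 4676 in ADT tumours and 770 and 557 in mock tumours (log2 2.84, SE 0.40, adjusted p = 0.112), and its change ranked 347 of 23289 genes. Hmgcs1 had 11943, 7681 and 9904 in ADT tumours and 2746 and 4700 in mock tumours (log2 1.43, SE 0.31, adjusted p = 0.175). In both, the lowest ADT library lay above the higher mock library. Acaca had 3206, 4357 and 3585 in ADT tumours and 1958 and 1953 in mock tumours (log2 0.91, SE 0.17, adjusted p = 0.137).

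The regulators other than Scap were likewise higher in every ADT library. Insig1 had 1825, 2612 and 2179 in ADT tumours and 1219 and 1206 in mock tumours (log2 0.85, SE 0.19, adjusted p = 0.177). Srebf2 had 6520, 7579 and 7491 in ADT tumours and 3533 and 4569 in mock tumours (log2 0.84, SE 0.16, adjusted p = 0.151). Srebf1 had 6833, 6911 and 9115 in ADT tumours and 4190 and 5509 in mock tumours (log2 0.65, SE 0.21, adjusted p = 0.24). Scap had 1837, 2559 and 2245 in ADT tumours and 2006 and 2168 in mock tumours, which overlap.

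Cyp51 had 3127, 4104 and 2782 in ADT tumours and 1479 and 2317 in mock tumours, and its log2 change of 0.83 was among the higher ones of the sterol enzymes (adjusted p = 0.26). Hsd17b7, a reductase after lanosterol, had 930, 1210 and 1010 in ADT tumours and 359 and 799 in mock tumours (log2 0.96, adjusted p = 0.325). Sqle had 1555, 2376 and 1955 in ADT tumours and 1022 and 1639 in mock tumours, where 1 ADT library lay below a mock library (log2 0.58, adjusted p = 0.415). The other sterol enzymes had log2 changes between 0.01 (Mvk) and 0.68 (Dhcr7).

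Fasn had 11463, 14092 and 9689 in ADT tumours and 8859 and 9882 in mock tumours, which overlap (log2 0.31, SE 0.19, adjusted p = 0.497). Scd1 had 18709, 9395 and 7276 in ADT tumours and 14270 and 6139 in mock tumours, so that the spread within each group was wider than the difference (log2 0.21, SE 0.56, adjusted p = 0.891). Scd2 had 59578, 47802 and 56679 in ADT tumours and 40100 and 38545 in mock tumours (log2 0.47, SE 0.15, adjusted p = 0.24). Acly had log2 0.31 and Elovl6 log2 0.46, with ADT values on both sides of mock for Elovl6.

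Mock replicate 2 was the higher of the pair for 15 of the 18 sterol enzymes, and without mock replicate 1 the median of the sterol enzymes was 0.30 in place of 0.55. Cell markers were summed here too. The 9 luminal markers summed to 48127 to 61612 in ADT tumours and 91151 to 111422 in mock tumours, with Msmb at 0 in all 3 ADT libraries. The 7 smooth muscle markers summed to 10413 to 20158 in ADT tumours and 20232 to 33424 in mock tumours. Neither of these sums overlapped between the groups. The 7 macrophage markers summed to 15126 to 30917 in ADT tumours and 28169 to 95627 in mock tumours, and the 10 adipocyte markers to 4866 to 8249 in ADT tumours and 7730 to 12779 in mock tumours. The 6 fibroblast markers summed to 51331 to 355603 in ADT tumours and 87655 to 467805 in mock tumours, and the 6 seminal vesicle markers to 2 to 7878 in ADT tumours and 4563 to 253178 in mock tumours. The macrophage, adipocyte, fibroblast and seminal vesicle sums overlapped between the groups, as did those of basal and skeletal muscle markers. The part of these cell types in the higher values of the members was not tested.

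Around the pathway, none of the 22 other lipogenic genes and none of the 18 genes of sterol regulation and transport was called by limma; 17 of the 22 and 9 of the 18 had a log2 change above 0, against 48.6% of all genes, and 5 and 3 had an unadjusted p under 0.05, against 16.2%. The second list is thus at the shares of all genes. Gpam, which starts glycerolipid synthesis, had 3922, 6113 and 8107 in ADT tumours and 1407 and 1609 in mock tumours (log2 1.94, SE 0.33, adjusted p = 0.129). Fads1, the delta-5 desaturase, had 3920, 4540 and 7037 in ADT tumours and 1844 and 1116 in mock tumours (log2 1.80, SE 0.35, adjusted p = 0.151). Agpat2, a later enzyme of glycerolipid synthesis, had log2 0.87 (adjusted p = 0.14), and Hacd3, a dehydratase of fatty acid elongation, had log2 0.58 (adjusted p = 0.197). In the second list Abca1, which exports cholesterol, had log2 0.79 (adjusted p = 0.232), Lrp8, a lipoprotein receptor, log2 1.17 (adjusted p = 0.325) and Mbtps1, a protease that cleaves the SREBF proteins, log2 -0.30 (adjusted p = 0.297). Stard3, a carrier of late endosomes, was lower in every ADT library, with 1012, 1167 and 958 in ADT tumours and 1720 and 1642 in mock tumours (log2 -0.69, adjusted p = 0.165).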

How the data were processed

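RNA of 17 mouse prostate or prostate tumour samples was sequenced. The tools and build named in the submitters' processing notes, with no role or settings given, are DESeq2 1.14.1, HTSeq 0.6.0, TopHat2 2.1.0, FastQC 0.11.4, R 3.2.3, Bowtie2 2.2.6.0 and GRCm38.p3. What the authors deposited are scores: judged from the values, counts of each gene after division by a library's size factor, rounded to whole numbers. No count test was therefore run, and the depth is unknown.

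In the Ctnnb1, combined and wild-type libraries, features without an Entrez number and Entrez numbers on several rows were left out. Of rows there that repeat the same values, the lowest Entrez number was kept. The ADT and mock libraries were read by feature identifier, and no Entrez number was required. Of a feature on several rows there, the row with the lowest Entrez number was kept. The test was limma 3.58.1 (R 4.3.3) with a mean-variance trend on log2(value + 1), with no covariate and Benjamini-Hochberg adjustment over all genes tested, called at an adjusted p under 0.05. The 9 libraries of the Ctnnb1, combined and wild-type groups were fitted together, and the 5 ADT and mock libraries together. Genes needed a value of at least 1 in 3 or more of the 9 libraries, or in 2 or more of the 5. The scripts were tested on simulated data. Named genes are the members called in any comparison, those whose groups do not overlap with a log2 change of 1 or more, and a short list of key members; of the other pathway lists, the 4 genes with the smallest p in each comparison. The members and lists were chosen with earlier results of these data known. Gene positions are from GENCODE M21. A further genotype group and the further engineered change are not reported here. Alternatives were other pseudocounts, filters and scalings, other sets of libraries in the fit, a robust variance prior, a replicate block and leaving out each library.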

Additional observations from a re-analysis of the deposited data

How the results depend on the processing

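Other pseudocounts, no filter or a filter at 50, and median-of-ratios scaling changed no call of any of the 29 members and turned no called one, and no alternative of the ADT comparison called a member. Equal totals moved the medians of the sterol enzymes, regulators and fatty acid genes to 0.11, -0.05 and 0.87 in Ctnnb1 tumours. In combined tumours they moved the medians to 0.82, 0.06 and 0.92. They also raised the called sterol enzymes to 13 and the called fatty acid genes to 5 there (all genes: 57.3% called higher, 12.6% lower). They turned the sign of Pmvk (0.43), Ebp (0.06), Scd2 (0.25), Lss (0.20), Msmo1 (0.16) and Hsd17b7 (0.15) in Ctnnb1 tumours, of Pmvk (0.51), Fdft1 (0.05), Ebp (0.08), Insig1 (0.04), Srebf1 (0.25), Lss (0.20), Dhcr7 (0.46), Stard4 (0.06) and Scd1 (0.01) in combined tumours, and of Mvk (-0.04) in ADT tumours. With 12 libraries in the fit, 4 sterol enzymes were called in Ctnnb1 tumours, and 5 sterol enzymes and 1 regulator in combined tumours; the cause was not tested. With 6 libraries, 12 sterol enzymes and 5 fatty acid genes were called in Ctnnb1 tumours and 8 and 4 in combined tumours. Counts with 12 libraries, with 6 or with 1 left out stand here without the share of all genes called in the same fit. Such counts are therefore not read as a result about the members. Leaving out 1 library at a time gave 4 to 7 called sterol enzymes and 2 to 4 called fatty acid genes in Ctnnb1 tumours, with the low of 4 without wild-type replicate 2 and the low of 2 without wild-type replicate 1. It gave a regulator median of -0.47 to -0.27 in combined tumours, and in ADT tumours sterol medians of 0.30 to 0.73, regulator medians of 0.65 to 0.91 and 0 to 0 genes called in the whole table; where 1 mock library was left, its spread was taken from the ADT libraries. The 2 genes called there became 5 with a pseudocount of 8, 59 with the filter at 50, 48 at equal totals, 54 with upper-quartile scaling, 29 with the robust prior and 0 with the replicate block. ADT and mock share replicate numbers 1 and 2, but nothing in the labels makes them pairs. Deviations of same-numbered libraries correlated at 0.22 and 0.12 over 23289 genes, and those of mock replicate 2 and ADT replicate 3 at 0.14. With 2 mock libraries the deviations of 1 mirror those of the other, so these correlations cannot show pairing. The block called no member, but that fit left little from which to estimate the spread. No paired analysis was possible for the genotype comparisons because these groups share no replicate numbers. Depth is unknown, so it sets no limit that can be stated.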
